A study of Mus musculus with 4 samples.

Results

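Fibroblasts of the meninges and of the spaces around brain vessels made up 388 of the 74993 cell barcodes deposited from glia-enriched mouse brain suspensions, and 388 of the 60717 barcodes that passed the quality filters. A barcode tags the RNA of 1 droplet and is taken here as 1 cell. The members were chosen by counts of unique molecular identifiers (UMIs), each of which stands for 1 captured transcript. A member had at least 1000 UMIs, at least 500 genes and at most 20% mitochondrial UMIs, at least 3 of the genes Col1a1, Col1a2, Col3a1, Dcn, Lum and Pdgfra, and at least 6 UMIs of these 6 genes together. It also had at most 1 UMI of the mural cell genes Kcnj8, Abcc9 and Myh11 and at most 3 UMIs of C1qa, Ctss and Cldn5, which mark microglia and endothelial cells. Levels of these 12 genes in the members are therefore a description and carry no test.

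The study used male mice whose Apoe locus had been replaced by a human APOE allele, in the controls as well as in the treated animals. The 4 groups were APOE4 mice killed 24 h after 5 mg/kg of the bacterial endotoxin lipopolysaccharide (LPS) was injected into the peritoneum, APOE4 mice labelled NaCl, APOE3 mice given the same LPS treatment, and APOE3 mice labelled NaCl. Each group was 1 library made from the pooled tissue of 3 mice, and no file assigns a cell to a mouse. With 1 library per group no test was possible, so ratios are given with 95% intervals that cover counting error only, and no difference has a replicate check.

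Cells of this kind lie in the dura, arachnoid and pia that wrap the brain and in the sleeve around larger vessels. They build collagens and laminins, seal and transport solutes at the edge of the cerebrospinal fluid, and supply retinoic acid and chemokines to the tissue below. LPS acts through Toll-like receptor 4 on many cell types, and the cytokines released in response reach brain border cells from the blood. Such cytokines are known to act through the transcription factors NF-kB, STAT and C/EBP on acute-phase genes and through interferon response elements on antiviral genes.

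Of the barcodes past the filters, the members made up 0.462% in APOE4 LPS (84 of 18182; exact binomial 95% interval 0.369% to 0.572%), 0.581% in APOE4 NaCl (76 of 13071; 0.458% to 0.727%), 0.983% in APOE3 LPS (148 of 15060; 0.831% to 1.15%) and 0.555% in APOE3 NaCl (80 of 14404; 0.441% to 0.691%). The APOE4 LPS library stood apart. It held 29361 deposited barcodes, against 14122 in APOE4 NaCl, 16078 in APOE3 LPS and 15432 in APOE3 NaCl, and its barcodes past the filters had a median of 2311 UMIs, against 4431, 5954 and 4150 UMIs in those libraries in the same order. Among barcodes with at least 2000 UMIs the members made up 0.780% in APOE4 LPS (79 of 10133), 0.601% in APOE4 NaCl (70 of 11650), 1.06% in APOE3 LPS (147 of 13871) and 0.564% in APOE3 NaCl (72 of 12758). Their share in APOE4 LPS was thus lower than in APOE4 NaCl over all barcodes past the filters and higher at that limit, with overlapping intervals under either. The doublet caller marked 0 barcodes in APOE4 LPS and so did not work there. It marked 10 members in APOE4 NaCl, 25 in APOE3 LPS and 19 in APOE3 NaCl, which were kept.

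The members themselves were deeper than their libraries. They held 1167553 UMIs in APOE4 LPS, 698466 in APOE4 NaCl, 2537296 in APOE3 LPS and 827550 in APOE3 NaCl. Median UMIs per member were 10632 in APOE4 LPS, 7982 in APOE4 NaCl, 13894 in APOE3 LPS and 8306 in APOE3 NaCl. No member barcode was shared between libraries, while 61 to 140 of all barcodes were shared by each pair of libraries. Just inside the limit, with 6 or 7 marker UMIs, were 8, 6, 3 and 6 members in APOE4 LPS, APOE4 NaCl, APOE3 LPS and APOE3 NaCl. Just outside it, with 4 or 5 marker UMIs, were 10, 7, 6 and 10 barcodes in the same order. A further 38, 6, 25 and 7 barcodes met the marker limits and failed the limits on mural, microglial and endothelial genes.

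The label was checked against marker lists of other cell types, each summed in CPM (counts per 1000000 UMIs of the members). The 6 fibroblast markers chose the members, so their sums describe them and check nothing. They came to 1999 CPM in APOE4 LPS, 2332 in APOE4 NaCl, 1631 in APOE3 LPS and 2390 in APOE3 NaCl members, against 2.89 to 3.68 CPM in the oligodendrocytes of the 4 libraries. Pericyte markers summed to 134 to 371 CPM, with Higd1b at 0 in both NaCl groups and Kcnj8, which the selection limited, also at 0 there. Smooth muscle markers summed to 11.1 CPM in APOE4 LPS, 95.9 in APOE4 NaCl, 15.8 in APOE3 LPS and 43.5 in APOE3 NaCl. Endothelial markers summed to 329 to 688 CPM, microglial markers to 91.8 to 132 CPM with Mrc1 at 0, neutrophil markers to 0 to 11.1 CPM, and astrocyte markers to 819 to 1645 CPM. Choroid plexus markers, chiefly Ttr, summed to 10711 CPM in APOE4 NaCl, against 257 to 350 CPM in the other libraries. The mouse Apoe gene, which the targeted replacement alters, had 35, 23, 51 and 25 UMIs in APOE4 LPS, APOE4 NaCl, APOE3 LPS and APOE3 NaCl, and Xist had 0 in all 4 libraries.

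The members fell into 2 groups that hardly overlapped. Slc4a10 (a bicarbonate transporter), Slc47a1, Ccn3 and Slc26a7 marked the larger group, and Lama1 (a laminin chain of the pial basement membrane), Slc6a13, Col15a1, Slc6a20a and Vtn marked the smaller one. The 9 genes were picked after their values were seen, so their levels define the groups and are not results. Of the UMIs of these 9 genes, the second set made up 0% in 277 members and 100% in 68. It made up 25% to 75% in 7 members, and 7 others had no UMI of the 9 genes. The 302 members under 25% are called the Slc4a10-high group and the 72 over 75% the Lama1-high group. The share alone set the group, with no minimum of UMIs, so that 1 UMI of the 9 genes could place a member. A Slc4a10 UMI was found in 63 of the 70 Slc4a10-high members of APOE4 LPS and in all 54 of APOE4 NaCl. In APOE3 LPS one was found in 121 of 122 such members and in APOE3 NaCl in 55 of 56. The Slc4a10-high group made up 83.3% of members in APOE4 LPS (70), 71.1% in APOE4 NaCl (54), 82.4% in APOE3 LPS (122) and 70.0% in APOE3 NaCl (56).

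**Figure D1:**
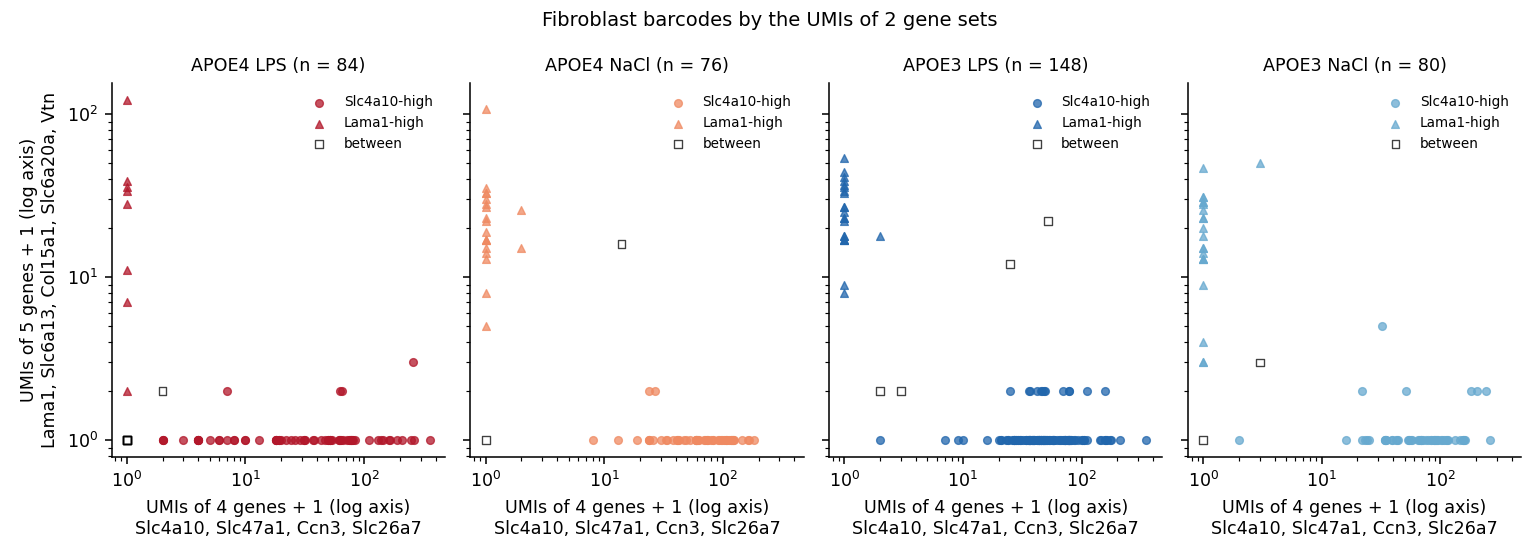
UMIs of Slc4a10, Slc47a1, Ccn3 and Slc26a7 plus 1 (x axis, log scale) against UMIs of Lama1, Slc6a13, Col15a1, Slc6a20a and Vtn plus 1 (y axis, log scale) in each of the 388 members, with 1 panel per library. Circles are the Slc4a10-high group, triangles the Lama1-high group and open squares the 14 members between them, and each library holds an arm of points along either axis.

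Markers of other cell types were not spread evenly over the groups. Pericyte markers summed to 3568 CPM in APOE4 LPS, 2708 in APOE4 NaCl, 1880 in APOE3 LPS and 2998 in APOE3 NaCl in the Lama1-high group, against 28.9, 30.4, 28.0 and 36.7 CPM in the Slc4a10-high group. Most of that sum was Vtn, 1 of the 9 genes that define the groups, with 3399, 2384, 1706 and 2704 CPM in the Lama1-high group. Pdgfrb, a receptor that pericytes and fibroblasts are both known to carry, had 121, 276, 158 and 182 CPM there. Astrocyte markers summed to 5472, 2744, 1298 and 5422 CPM in the Lama1-high group, against 718, 1548, 801 and 974 CPM in the Slc4a10-high group of the same libraries. Their part in the values of the Lama1-high group given below was not tested.

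The Lama1-high group was the less deeply counted of the pair. Its median was 3840 UMIs in APOE4 LPS, 3087 in APOE4 NaCl, 3609 in APOE3 LPS and 2525 in APOE3 NaCl, against 12325, 8902, 15430 and 10875 UMIs in the Slc4a10-high group of the same libraries. Of all barcodes past the filters, the Lama1-high group made up 0.0440% in APOE4 LPS (8 barcodes; 0.0190% to 0.0867%) and 0.153% in APOE4 NaCl (20; 0.0935% to 0.236%). It made up 0.146% in APOE3 LPS (22; 0.0916% to 0.221%) and 0.153% in APOE3 NaCl (22; 0.0957% to 0.231%). Its share of member UMIs was 3.55% in APOE4 LPS, 11.9% in APOE4 NaCl, 4.74% in APOE3 LPS and 8.63% in APOE3 NaCl. These shares move with every summed level of a gene that 1 group makes and the other does not, and they are repeated below beside such genes.

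Other genes differed between the groups in all 4 libraries. Rspo3, a secreted enhancer of Wnt signalling, had 693, 1081, 524 and 1083 CPM in the Slc4a10-high group of APOE4 LPS, APOE4 NaCl, APOE3 LPS and APOE3 NaCl, against 0, 0, 0 and 14.0 CPM in the Lama1-high group. Adamtsl3, a matrix glycoprotein, had 532, 729, 489 and 762 CPM in the Slc4a10-high group and 0 in the Lama1-high group of every library. Mgp, an inhibitor of calcification, had 11985, 10048, 11026 and 16145 CPM in the Slc4a10-high group, against 72.3, 180, 1015 and 126 CPM. The reverse held for Cemip, a hyaluronan-degrading protein, with 2869, 1749, 1131 and 1415 CPM in the Lama1-high group and at most 5.17 CPM in the Slc4a10-high group. Slc7a11, the cystine and glutamate exchanger, had 3134, 2732, 5499 and 4525 CPM in the Lama1-high group, against 23.4, 40.5, 9.90 and 32.7 CPM. Igf2 and Igfbp2, a growth factor and its binding protein, also lay on that side, with 300 to 1354 CPM and 707 to 1289 CPM in the Lama1-high group, against 8.18 to 15.2 CPM and 33.2 to 77.6 CPM. The Slc4a10-high group thus carried Rspo3, Adamtsl3 and Mgp and the Lama1-high group Cemip, Slc7a11 and the IGF pair, whatever the genotype or treatment.

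Genes of the dura, arachnoid barrier and retinoic acid lists were divided over the groups in different ways, and those given here were chosen after their values were seen. After thinning each barcode to 1000 UMIs, Alpl (alkaline phosphatase), Foxc2 (a transcription factor of the meninges), Crabp2 (a carrier of retinoic acid) and Cdh1 (E-cadherin, of barrier junctions) had no UMI in any Lama1-high barcode. Among all members the thinned shares with an Alpl UMI were 9.52% in APOE4 LPS, 18.4% in APOE4 NaCl, 10.8% in APOE3 LPS and 22.5% in APOE3 NaCl, against 56.0%, 59.2%, 60.1% and 67.5% unthinned. Of the oligodendrocytes at most 0.17% held one after thinning. Since thinning leaves few transcripts per cell, these zeros concern detection at that depth. Gjb6, a connexin of the dura list, was found in both groups, with 482, 204, 108 and 294 CPM in the Lama1-high group of APOE4 LPS, APOE4 NaCl, APOE3 LPS and APOE3 NaCl and 172, 228, 177 and 295 CPM in the Slc4a10-high group. Ptgds, a prostaglandin D synthase of the arachnoid list, was higher in the Lama1-high group, with 11499, 55944, 8086 and 18997 CPM against 1370, 2413, 3487 and 3610 CPM, beside 21784, 7717, 33036 and 9447 CPM in oligodendrocytes. No layer name was given to either group.

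Acute-phase genes, some of whose products are known to be secreted in infection, had the highest median ratio of LPS over NaCl among the 36 lists in both genotypes. All 10 measured genes of the 25 on the list were higher by 2-fold or more in APOE4 LPS members than in APOE4 NaCl members, and 0 were lower, with a median log2 ratio of 4.86. In APOE3 all 11 measured genes were higher, with a median of 3.85. Over all genes that reached 20 UMIs in either library, 4.82% of 7863 were higher by 2-fold or more and 8.93% lower in APOE4, with a median of -0.09. In APOE3 3.99% of 9948 genes were higher and 5.44% lower, with a median of -0.15. Genes passed that minimum through whichever library was higher, so list counts describe the measured members only.

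Promoter sequences of 2 acute-phase genes and of 2 interferon-stimulated genes described below are shown first, because most measured genes of both lists were called higher under LPS in both genotypes. They are the 250 bases before the transcript start in RefSeq on GRCm38.p6, the gene's own strand, with motif matches in capitals. Lcn2 lies on the minus strand of chromosome 2 (gene 32384637 to 32387739, window chr2:32387740-32387989). Saa3 lies on the minus strand of chromosome 7 (gene 46711998 to 46719615, window chr7:46715677-46715926, inside the gene because a longer transcript starts further upstream). Isg15 lies on the minus strand of chromosome 4 (gene 156199424 to 156200818, window chr4:156200819-156201068). Ifit3 lies on the plus strand of chromosome 19 (gene 34583119 to 34588982, window chr19:34583279-34583528, also inside the gene span).
Lcn2: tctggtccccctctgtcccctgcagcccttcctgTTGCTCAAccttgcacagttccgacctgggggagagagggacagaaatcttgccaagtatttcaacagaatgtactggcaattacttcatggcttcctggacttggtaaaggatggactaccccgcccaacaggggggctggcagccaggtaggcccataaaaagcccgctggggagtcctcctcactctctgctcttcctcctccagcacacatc
Saa3: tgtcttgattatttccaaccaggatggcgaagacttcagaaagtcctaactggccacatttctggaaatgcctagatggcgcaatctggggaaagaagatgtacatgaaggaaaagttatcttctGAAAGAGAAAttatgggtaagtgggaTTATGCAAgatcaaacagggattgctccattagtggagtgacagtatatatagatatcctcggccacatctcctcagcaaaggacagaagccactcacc
Isg15: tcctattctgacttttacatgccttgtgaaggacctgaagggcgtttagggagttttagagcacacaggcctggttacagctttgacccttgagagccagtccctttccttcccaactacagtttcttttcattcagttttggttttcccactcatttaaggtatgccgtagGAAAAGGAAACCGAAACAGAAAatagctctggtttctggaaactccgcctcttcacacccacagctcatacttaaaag
Ifit3: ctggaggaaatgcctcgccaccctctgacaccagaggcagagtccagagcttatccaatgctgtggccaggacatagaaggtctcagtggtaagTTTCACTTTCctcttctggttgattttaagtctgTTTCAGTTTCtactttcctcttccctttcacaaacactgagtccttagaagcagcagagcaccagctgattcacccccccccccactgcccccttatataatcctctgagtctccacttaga
Both strands were searched for TTGCNNAA (a C/EBP motif), for 2 copies of GAAA with 2 bases between them (an interferon response element) and for GGG, 2 bases, TT, 1 base and CC in that order (an NF-kB motif) over these 250 bases and the 50 bases after the start. Lcn2 held a C/EBP match at -216 to -209. Saa3 held an interferon element at -125 to -116 and a C/EBP match on the other strand at -99 to -92. Isg15 held 3 interferon elements between -78 and -57 that overlap each other, and Ifit3 held 2 on the other strand, at -156 to -147 and at -122 to -113. Among all 32851 promoter windows of that length, 10.8% held the C/EBP motif, 3.44% the interferon element and 4.79% the NF-kB motif. The C/EBP motif was in a window of 13 of the 21 acute-phase genes with a sequence, and the interferon element in 14 of the 28 interferon-stimulated genes with one. The windows shown held no NF-kB match, while that motif was in a window of 6 of the 21 acute-phase genes and 1 of the 28 interferon-stimulated genes. Per gene, over any window, the shares of all 27025 genes were 12.2% for C/EBP, 3.99% for the interferon element and 5.48% for NF-kB. A match describes the letters and says nothing of binding.

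Lcn2 encodes lipocalin 2, which withholds iron-loaded siderophores from bacteria. It had 8746 CPM (10212 UMIs) in APOE4 LPS and 0 in APOE4 NaCl members, and 12364 CPM (31370 UMIs) in APOE3 LPS and 0 in APOE3 NaCl members. Taken against a floor of 3 counts in the NaCl library, this was at least 2036-fold higher in APOE4 and at least 3410-fold higher in APOE3. After thinning to 1000 UMIs, 70.2% of members held a Lcn2 UMI in APOE4 LPS (exact 95% interval 59.3% to 79.7%) and 81.1% in APOE3 LPS (73.8% to 87.0%); without thinning the shares were 90.5% and 87.8%. Neither NaCl library had a member with a Lcn2 UMI, which at the floor of 3 counts allows a share of members with a UMI of up to 3.95% in APOE4 NaCl and 3.75% in APOE3 NaCl. In oligodendrocytes, taken as the level that free RNA can give, the thinned shares were 4.22% in APOE4 LPS, 0.07% in APOE4 NaCl, 1.55% in APOE3 LPS and 0% in APOE3 NaCl, at median depths of 4869, 4996, 6044 and 4782 UMIs.

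Saa3, a serum amyloid A protein, had 4104 CPM in APOE4 LPS and 0 in APOE4 NaCl, and 4971 CPM in APOE3 LPS and 0 in APOE3 NaCl members. These were at least 955-fold and at least 1371-fold higher. A thinned Saa3 UMI was found in 44.0% of APOE4 LPS members and 48.0% of APOE3 LPS members (69.0% and 60.8% unthinned), against 10.9% and 1.11% of the oligodendrocytes of the same libraries. Saa3 was thus found in fewer members than Lcn2. Saa1 had 302 CPM in APOE4 LPS and 450 CPM in APOE3 LPS, and Serpina3n 51.4 and 88.3 CPM, with 0 in the NaCl members of both genotypes. Oligodendrocytes held more Serpina3n than the members did, at 608 and 303 CPM under LPS. Paralogues such as Saa1 and Saa3, the Ifi genes and the H2 genes share sequence, and how reads between them were split is uncertain.

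Lbp, the serum protein that hands LPS to its receptor, had 851 CPM in APOE4 LPS and 107 CPM in APOE4 NaCl members (7.93-fold, 6.27 to 10.2). It had 1624 CPM in APOE3 LPS and 104 CPM in APOE3 NaCl members (15.6-fold, 12.6 to 19.6). Steap4, an iron and copper reductase, had 154 CPM in APOE4 LPS and 5.73 CPM in APOE4 NaCl (26.9-fold, 10.3 to 99.9), and 77.6 CPM in APOE3 LPS and 6.04 CPM in APOE3 NaCl (12.8-fold, 5.41 to 40.0). The metallothionein Mt2, which binds zinc and copper, had 3745 CPM in APOE4 LPS and 242 CPM in APOE4 NaCl, and 1352 CPM in APOE3 LPS and 208 CPM in APOE3 NaCl. Its ratios were 15.5 (13.3 to 18.2) in APOE4 and 6.50 (5.58 to 7.63) in APOE3. Mt2 was also high in other cells: oligodendrocytes had 1157 CPM in APOE4 LPS, 45.8 in APOE4 NaCl, 158 in APOE3 LPS and 60.9 in APOE3 NaCl. The zinc importer Slc39a14 had 210 CPM in APOE4 LPS and 17.2 CPM in APOE4 NaCl (12.2-fold, 6.87 to 24.0), against 84.7 and 21.8 CPM in the APOE3 pair (3.90-fold, 2.41 to 6.70). Lbp, Steap4, Mt2 and Slc39a14 were thus higher under LPS in both genotypes.

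Timp1, an inhibitor of matrix metalloproteinases, had 3328 CPM in APOE4 LPS and 90.2 CPM in APOE4 NaCl members (36.9-fold, 28.8 to 48.1). In APOE3 it had 3756 CPM under LPS and 260 CPM under NaCl (14.5-fold, 12.6 to 16.6). Thinned shares of members with a Timp1 UMI were 72.6% in APOE4 LPS and 9.21% in APOE4 NaCl, and 76.4% in APOE3 LPS and 12.5% in APOE3 NaCl; unthinned, they were 92.9%, 44.7%, 91.2% and 60.0%. Of the oligodendrocytes at most 0.26% held one after thinning. Prg4, the surface lubricant lubricin, had 8249 CPM in APOE4 LPS and 882 CPM in APOE4 NaCl (9.35-fold, 8.62 to 10.2). It had 7779 CPM in APOE3 LPS and 1467 CPM in APOE3 NaCl (5.30-fold, 5.00 to 5.62). The members, under 1% of barcodes, held 49.6%, 42.9%, 64.7% and 58.6% of all Prg4 UMIs of the APOE4 LPS, APOE4 NaCl, APOE3 LPS and APOE3 NaCl libraries. Of Timp1 UMIs they held 39.6%, 43.8%, 66.0% and 51.3%. Both transcripts were thus concentrated in these few cells before and after LPS.

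**Figure D2:**
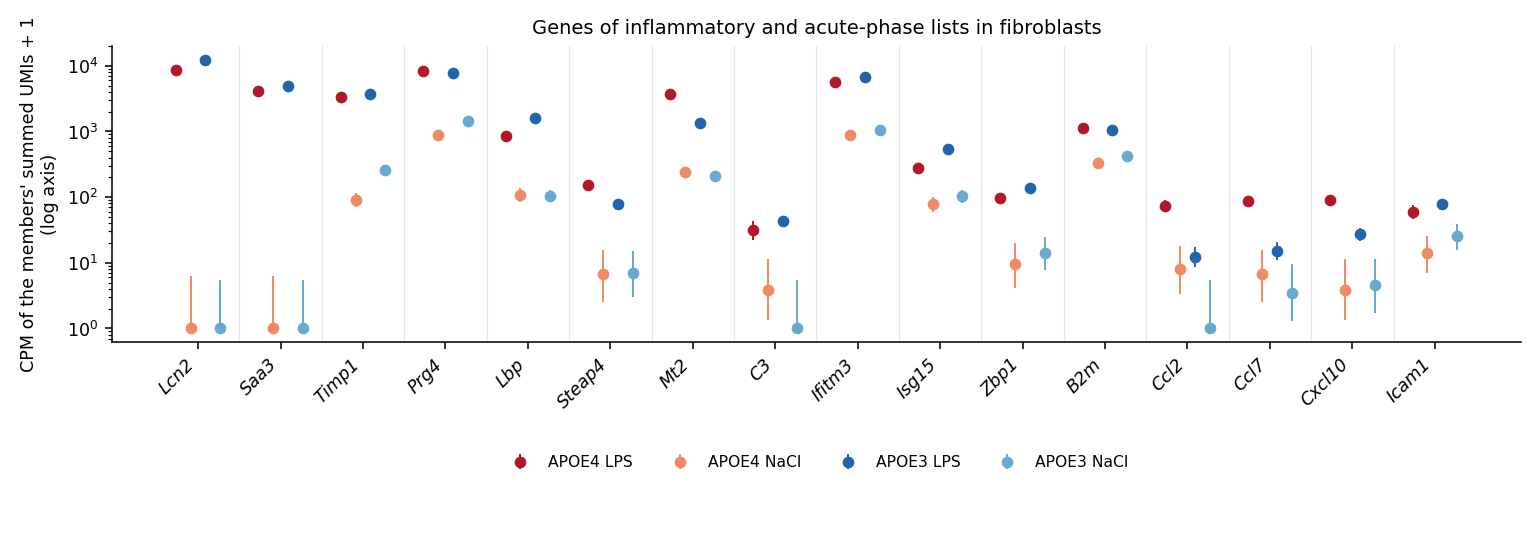
Levels of 16 genes in CPM of summed member UMIs plus 1 (log axis) in the 4 libraries, with LPS left of NaCl within each genotype and bars giving the exact Poisson 95% interval of counting error. Lcn2 and Saa3 sit at 0 CPM in both NaCl libraries and above 4000 CPM in both LPS libraries.

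Other genes led the ranking by interval. Ly6a, a cell surface protein induced by interferon, had 375 CPM in APOE4 LPS and 21.5 CPM in APOE4 NaCl (17.5-fold, 10.5 to 31.5), and 720 CPM in APOE3 LPS and 62.8 CPM in APOE3 NaCl (11.5-fold, 8.70 to 15.4). Prok2, a secreted chemoattractant peptide, had 649 CPM in APOE4 LPS and 1.43 CPM (1 UMI) in APOE4 NaCl, a ratio of 453 with an interval of 81.1 to 17934. In APOE3 it had 346 CPM under LPS and 0 under NaCl, at least 95.5-fold higher. Srgn, a proteoglycan of secretory granules, had 321 CPM in APOE4 LPS and 32.9 CPM in APOE4 NaCl, and 322 CPM in APOE3 LPS and 62.8 CPM in APOE3 NaCl. Stra6, the membrane receptor for retinol-binding protein, had 233 CPM in APOE4 LPS and 22.9 CPM in APOE4 NaCl (10.2-fold, 6.15 to 18), and 277 CPM in APOE3 LPS and 120 CPM in APOE3 NaCl (2.32-fold, 1.87 to 2.89). Angptl4, an inhibitor of lipoprotein lipase, had 141, 11.5, 132 and 43.5 CPM in APOE4 LPS, APOE4 NaCl, APOE3 LPS and APOE3 NaCl. All 5 genes were higher under LPS than under NaCl in either genotype.

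Of the complement genes, 8 of 11 measured (23 listed) were at least 2-fold higher in APOE4 and 8 of 13 in APOE3, with none lower; medians were 1.40 and 1.27. C3, the central complement component, had 30.8 CPM in APOE4 LPS and 2.86 CPM (2 UMIs) in APOE4 NaCl (10.8-fold, 2.77 to 92.3), and 42.6 CPM in APOE3 LPS and 0 in APOE3 NaCl (at least 11.7-fold). C1ra, a protease of the classical pathway, had 61.7 CPM in APOE4 LPS and 5.73 CPM in APOE4 NaCl (10.8-fold, 4.03 to 40.6), and 81.6 CPM in APOE3 LPS and 4.83 CPM in APOE3 NaCl (16.9-fold, 6.49 to 62.5). Serping1, the inhibitor of that protease, was higher too, at 600 CPM in APOE4 LPS and 226 CPM in APOE4 NaCl, and 648 CPM in APOE3 LPS and 178 CPM in APOE3 NaCl. The genes called higher also included C1qb in both genotypes, C1qa in APOE4 and C1qc in APOE3, which encode C1q chains that microglia are known to make, and C1qa was 1 of the genes that limited the members. C1qb had 32.5 CPM in APOE4 LPS and 14.3 CPM in APOE4 NaCl, and 29.2 CPM in APOE3 LPS and 12.1 CPM in APOE3 NaCl members, against 49.1, 21.6, 38.3 and 25.1 CPM in the oligodendrocytes of the same libraries. Microglial markers summed to 132, 109, 117 and 91.8 CPM in the members of APOE4 LPS, APOE4 NaCl, APOE3 LPS and APOE3 NaCl, and 14, 3, 26 and 2 members held over 3 UMIs of them. Their part in the C1q calls was not tested.

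Of the 40 interferon-stimulated genes, 21 of 30 measured were called higher in APOE4 LPS and 21 of 32 in APOE3 LPS, with none lower, and medians of 1.37 and 1.56. Ifitm3, which blocks virus entry at endosomes, had 5663 CPM in APOE4 LPS and 868 CPM in APOE4 NaCl (6.53-fold, 6.01 to 7.11), and 6852 CPM in APOE3 LPS and 1048 CPM in APOE3 NaCl (6.54-fold, 6.11 to 7.01). Isg15, the ubiquitin-like modifier whose promoter is shown above, had 273 CPM in APOE4 LPS and 77.3 CPM in APOE4 NaCl (3.53-fold, 2.64 to 4.81). A single barcode held 63.0% of the 54 Isg15 UMIs of APOE4 NaCl. In APOE3 Isg15 had 533 CPM under LPS and 102 CPM under NaCl (5.25-fold, 4.21 to 6.63). Ifit3, whose promoter is also shown, had 140 CPM in APOE4 LPS and 51.5 CPM in APOE4 NaCl (2.71-fold, 1.88 to 4.0), and 183 CPM in APOE3 LPS and 47.1 CPM in APOE3 NaCl (3.88-fold, 2.80 to 5.53). Zbp1, a sensor of left-handed nucleic acids, had 95.9 CPM in APOE4 LPS and 8.59 CPM in APOE4 NaCl, and 135 CPM in APOE3 LPS and 13.3 CPM in APOE3 NaCl. Among the 20 interferon-inducible GTPases, 10 of 13 measured were higher in APOE4 and 11 of 15 in APOE3, with medians of 1.56 and 1.24.

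Genes of antigen presentation split by class. For MHC class I presentation, 7 of 17 measured genes were called higher in APOE4 and 7 of 18 in APOE3, with none lower. B2m, the light chain of class I, had 1146 CPM in APOE4 LPS and 326 CPM in APOE4 NaCl (3.51-fold, 3.05 to 4.06), and 1067 CPM in APOE3 LPS and 423 CPM in APOE3 NaCl (2.52-fold, 2.26 to 2.83). Psmb8, an immunoproteasome subunit, had 140, 32.9, 172 and 42.3 CPM in APOE4 LPS, APOE4 NaCl, APOE3 LPS and APOE3 NaCl. Of 6 measured class II genes none were higher. In APOE4, 2 were at least 2-fold lower and in APOE3 1 was, and the class II chain H2-Ab1 had 43.7 CPM in APOE4 LPS and 127 CPM in APOE4 NaCl (2.92-fold lower, 2.04 to 4.20), and 77.3 CPM in APOE3 LPS and 97.9 CPM in APOE3 NaCl (1.27-fold lower, 0.966 to 1.65).

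Chemokines, which recruit leukocytes, moved both ways. Of 31 listed, 12 were measured in APOE4, of which 6 were at least 2-fold higher and 2 lower, and 13 in APOE3, of which 7 were higher and 2 lower. Ccl2, the main monocyte attractant, had 72.8 CPM in APOE4 LPS and 7.16 CPM (5 UMIs) in APOE4 NaCl, and 11.4 CPM in APOE3 LPS and 0 in APOE3 NaCl. Ccl7 had 85.7 CPM (100 UMIs) in APOE4 LPS and 5.73 CPM in APOE4 NaCl, and 14.2 CPM in APOE3 LPS and 2.42 CPM in APOE3 NaCl. Ccl5, an attractant of T cells, had 212 CPM in APOE4 LPS and 0 in APOE4 NaCl, and 107 CPM in APOE3 LPS and 31.4 CPM in APOE3 NaCl, where 1 barcode held all 26 UMIs. In APOE3 Ccl5 was lower under LPS instead when members with over 3 UMIs of 7 genes of other cell types were left out. The share of members with a UMI differed between chemokines. Ccl5 was found in 42 of 84 APOE4 LPS members and in 18.2% of APOE3 LPS members, while Ccl2 was found in 20.2% of APOE4 LPS members, Ccl7 in 17.9% and Cxcl10, a lymphocyte attractant, in 7.14%. A single barcode held 30.6% of the Ccl2, 62.0% of the Ccl7 and 43.3% of the Cxcl10 UMIs of that library. Cxcl14 and Cx3cl1 were the chemokines that were lower, with Cxcl14 at 12.9 CPM in APOE4 LPS and 41.5 CPM in APOE4 NaCl, and 4.34 CPM in APOE3 LPS and 24.2 CPM in APOE3 NaCl. Cxcl14 was higher in APOE3 LPS instead when members with over 3 UMIs of 7 genes of other cell types were left out.

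Regulators of the response were higher as well. Of the NF-kB subunits and feedback regulators, 10 of 17 measured were at least 2-fold higher in APOE4 and 6 of 20 in APOE3, with none lower and medians of 1.06 and 0.56. Sod2, the mitochondrial superoxide dismutase and a target of NF-kB, had 431 CPM in APOE4 LPS and 98.8 CPM in APOE4 NaCl, and 274 CPM in APOE3 LPS and 96.7 CPM in APOE3 NaCl. Cebpd, a C/EBP transcription factor, had 396 CPM in APOE4 LPS and 110 CPM in APOE4 NaCl (3.59-fold, 2.81 to 4.63), and 268 CPM in APOE3 LPS and 95.5 CPM in APOE3 NaCl (2.80-fold, 2.22 to 3.59). Of the innate and cytokine receptors, 5 of 19 and 4 of 22 were higher. Osmr, the oncostatin M receptor, was among them, with 92.5 CPM in APOE4 LPS and 11.5 CPM in APOE4 NaCl, and 49.3 CPM in APOE3 LPS and 13.3 CPM in APOE3 NaCl. Tlr4, the receptor of LPS, had 22.3, 21.5, 26.8 and 18.1 CPM in APOE4 LPS, APOE4 NaCl, APOE3 LPS and APOE3 NaCl. Of the genes that respond to glucocorticoids, 7 of 19 were higher in each genotype.

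In the summed members, the lists of basement membrane genes, small proteoglycans and matrix glycoproteins each had more genes called lower than higher in both genotypes. Of the basement membrane genes, 6 of 14 measured were at least 2-fold lower in APOE4 with none higher, and in APOE3 4 of 16 were lower and 1 higher. Over the summed members, Col15a1, a collagen of basement membranes, had 6.0 CPM in APOE4 LPS and 80.2 CPM in APOE4 NaCl, and 8.28 CPM in APOE3 LPS and 50.8 CPM in APOE3 NaCl. Lama1 had 48.0 CPM in APOE4 LPS and 150 CPM in APOE4 NaCl, and 65.0 CPM in APOE3 LPS and 115 CPM in APOE3 NaCl. The share of member UMIs from that group was 3.55% and 11.9% in the APOE4 pair and 4.74% and 8.63% in the APOE3 pair. Both genes are among the 9 that define the groups. Within the Slc4a10-high group, in APOE4 3 of 8 measured basement membrane genes were higher by 2-fold or more and none lower, with a median of 0.36, and in APOE3 none of 9 was higher or lower. Lama4, a laminin chain of vessels, had 80.2 CPM in APOE4 LPS and 28.7 CPM in APOE4 NaCl there (2.80-fold, 1.65 to 5.01), and the collagen IV chains Col4a1 and Col4a2 were the others. Within the Lama1-high group 1 of 10 was higher (Col4a1) and 1 lower (Col15a1) in APOE4, and in APOE3 none of 11 was higher and 3 were lower, Col15a1, Lamb2 and Col4a5. Col15a1 had 169 CPM in APOE4 LPS and 671 CPM in APOE4 NaCl, and 166 CPM in APOE3 LPS and 588 CPM in APOE3 NaCl, in that group. Without the deepest Lama1-high barcode of APOE3 LPS it had 222 CPM there. Over all genes measured in the Slc4a10-high group, 7.78% were at least 2-fold lower and 5.32% higher in APOE4, and 4.11% lower and 4.52% higher in APOE3.

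Small leucine-rich proteoglycans, which space and bind collagen fibrils, had 4 of 8 measured genes at least 2-fold lower in APOE4 and 5 of 9 in APOE3, with none higher and medians of -1.06 and -1.04. The list includes Dcn and Lum, which chose the members. Prelp had 48.8 CPM in APOE4 LPS and 140 CPM in APOE4 NaCl (2.87-fold lower), and 39.8 CPM in APOE3 LPS and 85.8 CPM in APOE3 NaCl (2.16-fold lower). Within the Slc4a10-high group 1 of 5 measured genes was lower in APOE4 and 4 of 8 in APOE3. Prelp was lower there in both genotypes, with 18.9 CPM in APOE4 LPS and 72.6 CPM in APOE4 NaCl, and 20.2 CPM in APOE3 LPS and 53.1 CPM in APOE3 NaCl. Within the Lama1-high group none of 4 measured genes was higher or lower in APOE4, with a median of 0.20. In APOE3 2 of 5 were higher there, Dcn and Ogn, and 1 was lower, Lum. The Lama1-high share of member UMIs was 3.55% against 11.9% in the APOE4 pair and 4.74% against 8.63% in the APOE3 pair. Its part in the summed medians was not tested.

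Of the elastic fibre and matrix glycoproteins, 7 of 19 were at least 2-fold lower and 2 higher in APOE4, and 7 of 20 lower and 1 higher in APOE3. Fn1, fibronectin, had 380 CPM in APOE4 LPS and 609 CPM in APOE4 NaCl (1.60-fold lower, 1.40 to 1.83), and 377 CPM in APOE3 LPS and 953 CPM in APOE3 NaCl (2.53-fold lower, 2.30 to 2.78). It was made by the Slc4a10-high group, where it was 1.99-fold lower (1.73 to 2.28) in APOE4 and 2.86-fold lower (2.60 to 3.16) in APOE3. Within that group the same list had 6 of 18 genes lower and 1 higher in APOE4, and 6 of 18 lower and 0 higher in APOE3, among them Sparcl1, Mfap2, Ltbp4 and Thbs2 in both. Fibronectin and these glycoproteins were thus lower within this group as well as in the summed members.

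Secreted growth factors and inhibitors followed the same direction. Ptn, pleiotrophin, had 970 CPM in APOE4 LPS and 2544 CPM in APOE4 NaCl (2.62-fold lower, 2.43 to 2.83), and 845 CPM in APOE3 LPS and 2870 CPM in APOE3 NaCl (3.40-fold lower, 3.20 to 3.60). Mdk, its relative midkine, had 56.5 CPM in APOE4 LPS and 231 CPM in APOE4 NaCl, and 40.6 CPM in APOE3 LPS and 161 CPM in APOE3 NaCl. Cst3, the protease inhibitor cystatin C, had 1454 CPM in APOE4 LPS and 3241 CPM in APOE4 NaCl, and 1266 CPM in APOE3 LPS and 3182 CPM in APOE3 NaCl. In the growth factor and Wnt list 8 of 20 measured genes were at least 2-fold lower and 4 higher in APOE4, and 5 of 22 lower and 3 higher in APOE3. Kctd12, an auxiliary subunit of GABA-B receptors, had 89.1 CPM in APOE4 LPS and 450 CPM in APOE4 NaCl (5.05-fold lower, 4.03 to 6.36), and 84.0 CPM in APOE3 LPS and 352 CPM in APOE3 NaCl (4.19-fold lower, 3.50 to 5.02). Hes1, a target of Notch, had 83.1, 268, 77.3 and 212 CPM in APOE4 LPS, APOE4 NaCl, APOE3 LPS and APOE3 NaCl. These 5 genes were lower under LPS in both genotypes.

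Of the meningeal solute carriers, 9 of 16 measured were at least 2-fold lower in APOE4 with none higher, and 7 of 18 lower with 1 higher in APOE3; medians were -1.26 and -0.68. Slc22a6 and Slc22a8, organic anion transporters of the blood-fluid barrier, were found in the Lama1-high group. There Slc22a6 had 72.3 CPM (3 UMIs) in APOE4 LPS and 371 CPM in APOE4 NaCl (5.14-fold lower, 1.60 to 26.3), and 49.9 CPM in APOE3 LPS and 350 CPM in APOE3 NaCl (7.02-fold lower, 2.81 to 20.9). Slc22a8 had 145 CPM in APOE4 LPS and 515 CPM in APOE4 NaCl (3.56-fold lower, 1.51 to 10.2), and 91.5 CPM in APOE3 LPS and 364 CPM in APOE3 NaCl (3.98-fold lower, 1.90 to 8.93). The deepest Lama1-high barcode of APOE3 LPS held no UMI of either gene. Without it the APOE3 ratios were 5.26-fold lower (2.11 to 15.7) for Slc22a6 and 2.98-fold lower (1.42 to 6.69) for Slc22a8. Slc7a11 of the same group was close in level, with ratios of 1.15 (0.918 to 1.43) in APOE4 and 1.22 (1.06 to 1.39) in APOE3. In the Slc4a10-high group, 2 of 10 measured carriers were lower in APOE4 and 4 of 11 in APOE3, of which Slc47a1 and Slc26a7 had defined the group.

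Contractile genes were lower too, beside smooth muscle marker sums that were also lower. In the myofibroblast and contractile list 4 of 9 measured genes were at least 2-fold lower in APOE4 and 2 of 7 in APOE3, with none higher. Myl9, a myosin light chain, had 6.0 CPM in APOE4 LPS and 71.6 CPM in APOE4 NaCl (11.9-fold lower, 5.39 to 31.2), and 8.67 CPM in APOE3 LPS and 21.8 CPM in APOE3 NaCl (2.51-fold lower, 1.27 to 4.90). Smooth muscle markers in the members summed to 11.1 CPM in APOE4 LPS and 95.9 CPM in APOE4 NaCl, and 15.8 CPM in APOE3 LPS and 43.5 CPM in APOE3 NaCl. Their part in the result was not tested.

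Many lists gave few calls at 2-fold in the summed members. None of 55 ribosomal protein genes reached 2-fold in either genotype. Of the cholesterol synthesis genes none of 15 in APOE4 and 1 of 21 in APOE3 did, of the glycolysis genes 2 of 16 and 2 of 19, and of the pia and arachnoid transcription factors 1 of 23 in each. The fibrillar collagens had 1 of 5 higher in APOE4 and 1 of 6 lower in APOE3, and 3 of their genes were used to choose the members. Over all genes measured, 4.82% were higher and 8.93% lower in APOE4, and 3.99% higher and 5.44% lower in APOE3. The glycolysis counts were near those shares. The other lists given here, ribosomal genes apart, hold too few genes to be set apart from them. The median of the ribosomal list was 0.34 in APOE4 and 0.37 in APOE3, against -0.09 and -0.15 over all genes. Within the Lama1-high group 18 of 55 ribosomal genes were higher and 0 lower in APOE3, where 21.0% of all genes were higher. In APOE4 1 of 55 was higher there and 5 were lower, where 17.2% of all genes were lower.

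Some genes named as lower in APOE3 mark astrocytes and neurons. Slc7a10, Pla2g7, Luzp2, Ptprz1, Bcan, Nwd1 and Syn2 were among the 15 genes named as lower. Astrocyte markers in the members summed to 819 CPM in APOE3 LPS and 1404 CPM in APOE3 NaCl, against 895 CPM in APOE4 LPS and 1645 CPM in APOE4 NaCl. When members with over 3 UMIs of 5 genes of other cell types were left out, Slc7a10 and Bcan had at most 3 UMIs per library. Nwd1 then had 13.6 CPM in APOE3 LPS and 86.8 CPM in APOE3 NaCl, 6.36-fold lower. The part of astrocyte RNA in these results was not tested.

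The same genes often moved in both genotypes. Among 7765 genes measured in both, 152 were at least 2-fold higher in both, which is 41.6% of the 365 higher in APOE4 and 69.1% of the 220 higher in APOE3. At least 2-fold lower in both were 250, or 39.9% of 626 in APOE4 and 61.3% of 408 in APOE3. Only 8 were called in opposite directions. Across these genes Pearson's r of the log2 ratios was 0.67, a description over genes, which are not independent. Over all genes measured in each genotype, 4.82% were higher and 8.93% lower in APOE4, and 3.99% higher and 5.44% lower in APOE3. The Lama1-high share of member UMIs was lower under LPS in both, at 3.55% against 11.9% in APOE4 and 4.74% against 8.63% in APOE3. Its part in the overlap and in r was not tested.

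**Figure D3:**
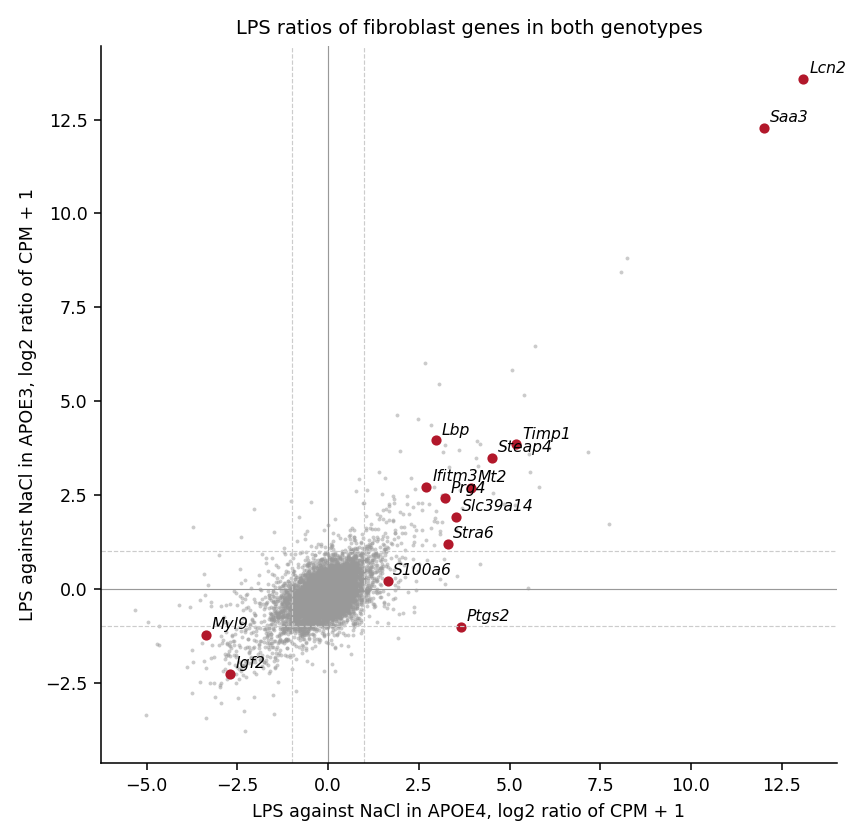
Log2 ratio of LPS over NaCl in APOE4 members (x axis) and in APOE3 members (y axis) for 7765 genes, on CPM + 1, with named genes labelled. Lcn2 and Saa3 lie at the upper right, and Ptgs2 lies right of 0 and below 0.

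The LPS and NaCl members were then set side by side within each of the 2 groups. Within the Slc4a10-high group all 10 measured acute-phase genes in APOE4 and all 11 in APOE3 were at least 2-fold higher. Within the Lama1-high group 5 of 5 were higher in APOE4 and 5 of 7 in APOE3. There the background over all genes was 6.52% higher and 17.2% lower of 675 genes in APOE4, and 21.0% higher and 9.68% lower of 1302 in APOE3. The Lama1-high group had 8 barcodes in APOE4 LPS, so its values there rest on few cells. The make-up of the Slc4a10-high group also differed. Its lower quartile of Slc4a10 per barcode was 320 CPM in APOE4 LPS and 2145 CPM in APOE4 NaCl. In the APOE3 pair it was 996 CPM under LPS and 1722 CPM under NaCl. The part of this in the ratios within the group was not tested.

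Lcn2 was chiefly a transcript of the Slc4a10-high group, with 9170 CPM in APOE4 LPS and 12880 CPM in APOE3 LPS, against 554 CPM and 1007 CPM in the Lama1-high group. Saa3 had 4153 and 4368 CPM in the Slc4a10-high group of APOE4 LPS and APOE3 LPS, against 1543 and 4376 CPM in the Lama1-high group. Both genes were at 0 in both groups under NaCl. Prg4 had 8526 CPM in APOE4 LPS and 1013 CPM in APOE4 NaCl, and 7898 CPM in APOE3 LPS and 1652 CPM in APOE3 NaCl, in the Slc4a10-high group. In the Lama1-high group Prg4 was at 0 in 3 libraries, and 245 of its 251 UMIs in APOE3 LPS came from a single barcode with 30116 UMIs.

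Cxcl12, which holds leukocytes and progenitors at borders, went opposite ways in the groups. In the Slc4a10-high group it had 536 CPM in APOE4 LPS and 192 CPM in APOE4 NaCl (2.78-fold higher, 2.27 to 3.43), and 576 CPM in APOE3 LPS and 156 CPM in APOE3 NaCl (3.68-fold higher, 3.04 to 4.50). In the Lama1-high group it had 579 CPM in APOE4 LPS and 1198 CPM in APOE4 NaCl (2.07-fold lower, 1.32 to 3.38), and 474 CPM in APOE3 LPS and 1107 CPM in APOE3 NaCl (2.33-fold lower, 1.64 to 3.34). Without the deepest barcode of APOE3 LPS the last ratio was 2.03-fold lower (1.41 to 2.97). The 2 groups, apart under NaCl, thus had similar levels under LPS. Brain endothelial cells, chosen by their own markers, had 406 CPM of Cxcl12 in APOE4 LPS and 2514 CPM in APOE4 NaCl, and 370 CPM in APOE3 LPS and 2391 CPM in APOE3 NaCl.

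Timp3, a matrix-bound protease inhibitor, differed in the other sense. It had 61.3 CPM in APOE4 LPS and 230 CPM in APOE4 NaCl (3.75-fold lower, 2.78 to 5.09), and 62.0 CPM in APOE3 LPS and 221 CPM in APOE3 NaCl (3.56-fold lower, 2.82 to 4.48), in the Slc4a10-high group. In the Lama1-high group it had 2386 CPM in APOE4 LPS and 1905 CPM in APOE4 NaCl, a ratio of 1.25 (0.965 to 1.62), and 3053 CPM in APOE3 LPS and 2312 CPM in APOE3 NaCl, a ratio of 1.32 (1.10 to 1.60). Without the deepest Lama1-high barcode of APOE3 LPS the last ratio was 1.73 (1.44 to 2.10). So the inhibitor pair of Timp1 and Timp3 moved apart in the Slc4a10-high group. Apod, a lipid-binding secreted protein, was higher under LPS in both groups. In the Slc4a10-high group it had 3943 CPM in APOE4 LPS and 324 CPM in APOE4 NaCl (12.2-fold, 10.5 to 14.1), and 4699 CPM in APOE3 LPS and 295 CPM in APOE3 NaCl (15.9-fold, 13.9 to 18.3). In the Lama1-high group it had 28469 CPM in APOE4 LPS and 13300 CPM in APOE4 NaCl (2.14-fold, 1.97 to 2.33), and 25757 CPM in APOE3 LPS and 14388 CPM in APOE3 NaCl (1.79-fold, 1.67 to 1.92). The last ratio was 2.06 (1.92 to 2.22) without the deepest Lama1-high barcode of APOE3 LPS. Oligodendrocytes had 16496 CPM of Apod in APOE4 LPS and 2494 CPM in APOE4 NaCl, and 14546 CPM in APOE3 LPS and 2402 CPM in APOE3 NaCl, and the part of their free RNA was not tested.

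Spp1, osteopontin, a cytokine-like matrix protein, was highest in the Lama1-high group. There it had 10149 CPM in APOE4 LPS and 1845 CPM in APOE4 NaCl (5.50-fold, 4.56 to 6.66), and 15183 CPM in APOE3 LPS and 2017 CPM in APOE3 NaCl (7.53-fold, 6.35 to 8.98). Without the deepest barcode of APOE3 LPS the ratio was 10.0 (8.47 to 12.0). In the Slc4a10-high group it had 1154 CPM in APOE4 LPS and 74.3 CPM in APOE4 NaCl (15.5-fold, 11.5 to 21.5), and 808 CPM in APOE3 LPS and 542 CPM in APOE3 NaCl (1.49-fold, 1.34 to 1.67). Igf2 was lower in the Lama1-high group, with 506 CPM in APOE4 LPS and 1354 CPM in APOE4 NaCl (2.67-fold lower, 1.67 to 4.49), and 300 CPM in APOE3 LPS and 1121 CPM in APOE3 NaCl (3.74-fold lower, 2.50 to 5.71). Without the deepest Lama1-high barcode of APOE3 LPS, which held no Igf2 UMI, the last ratio was 2.80-fold lower (1.87 to 4.28).

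**Figure D4:**
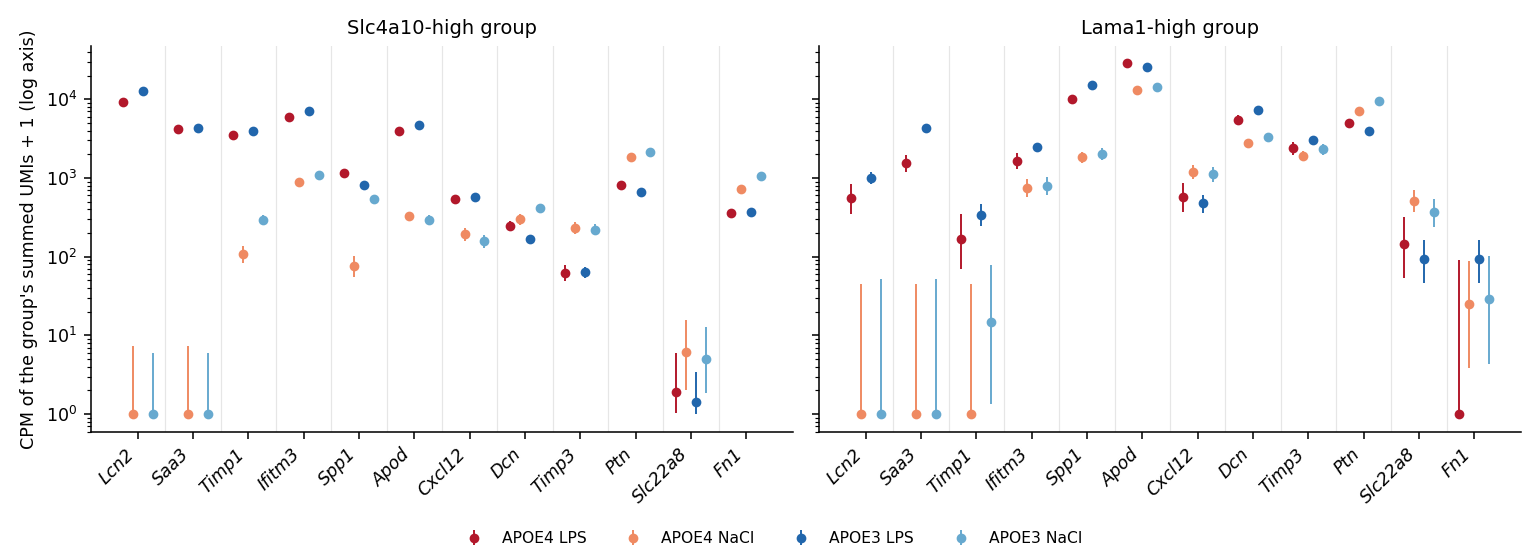
Levels of 12 genes in CPM + 1 (log axis) in the Slc4a10-high group and in the Lama1-high group of each library, with LPS left of NaCl within each genotype and bars giving the exact Poisson 95% interval of counting error. Cxcl12 is higher under LPS in the Slc4a10-high group and lower in the Lama1-high group.

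The genotypes were set side by side under each treatment. Under NaCl, 2.8% of 7184 genes were higher by 2-fold or more and 2.27% lower in APOE4 than in APOE3 members. Under LPS 1.08% of 9917 genes were higher and 3.35% lower. Since each genotype was 1 library under each treatment, genotype and library cannot be told apart.

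Under NaCl, Timp1, Stra6, S100a6 and Spp1, which were higher under LPS in both genotypes, had lower levels in APOE4. For S100a6 the log2 ratio of LPS over NaCl was 1.64 in APOE4 and only 0.21 in APOE3, below the 2-fold limit. Timp1 had 90.2 CPM in APOE4 NaCl and 260 CPM in APOE3 NaCl (2.88-fold lower, 2.17 to 3.88), and Stra6 22.9 and 120 CPM (5.22-fold lower, 3.06 to 9.49). S100a6, a calcium-binding protein, had 203 CPM in APOE4 NaCl and 551 CPM in APOE3 NaCl (2.71-fold lower, 2.24 to 3.30), and within the Slc4a10-high group 60.8 and 461 CPM. Spp1 had 292 CPM in APOE4 NaCl and 662 CPM in APOE3 NaCl (2.27-fold lower, 1.93 to 2.68). Mgp, which was lower under LPS in APOE3, had 8629 CPM in APOE4 NaCl and 14496 CPM in APOE3 NaCl (1.68-fold lower, 1.63 to 1.73). The epidermal secreted proteins Krtdap and Sbsn were also lower, with Krtdap at 8.59 CPM (6 UMIs) in APOE4 NaCl and 85.8 CPM in APOE3 NaCl. Under LPS the APOE4 and APOE3 levels of Timp1, Stra6, S100a6 and Spp1 were within 1.19-fold. Their larger ratio of LPS over NaCl in APOE4 thus follows from the lower NaCl level and is no separate result.

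Higher in APOE4 NaCl were Myl9, with 71.6 CPM in APOE4 NaCl and 21.8 CPM in APOE3 NaCl (3.29-fold, 1.89 to 5.99), and Ccn1, a matricellular protein, with 126 and 47.1 CPM (2.67-fold, 1.81 to 4.0). The heat-shock gene Hspa1b had 195 and 87.0 CPM (2.24-fold, 1.67 to 3.02). In the contractile list 4 of 9 measured genes were higher and none lower, with a median of 1.0, beside the smooth muscle marker sums of 95.9 CPM in APOE4 NaCl and 43.5 CPM in APOE3 NaCl. In the retinoic acid and vitamin A list 3 of 12 were higher, Ttr, Rbp4 and Rarres2, and 1 was lower, Stra6. Choroid plexus markers, Ttr among them, summed to 10711 CPM in APOE4 NaCl and 350 CPM in APOE3 NaCl. In APOE4 NaCl a single barcode held 89.0% of the 7406 Ttr UMIs, and the barcode with the most Rbp4 and that with the most Rarres2 held 53.8% and 52.3% of those genes' UMIs. In the Slc4a10-high group the choroid plexus sum was 201 CPM in APOE4 NaCl. Their part in these calls was not tested. For cholesterol synthesis 2 of 14 genes and for the arachnoid barrier 2 of 10 were lower, with none higher.

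Under LPS, 4 of 12 measured chemokines were higher by 2-fold or more in APOE4 members and none lower, with a median of 0.67. Ccl2 had 72.8 CPM in APOE4 LPS and 11.4 CPM in APOE3 LPS (6.37-fold, 4.14 to 10.1), and Ccl7 85.7 and 14.2 CPM (6.04-fold, 4.09 to 9.10). Csf3, the granulocyte growth factor, had 40 UMIs in APOE4 LPS and 3 in APOE3 LPS (ratio 29.0, 9.23 to 146). These rest on few cells, as given above, and 42.5% of the Csf3 UMIs came from 1 barcode. Mt2 had 3745 CPM in APOE4 LPS and 1352 CPM in APOE3 LPS (2.77-fold, 2.65 to 2.90), and Slc39a14 210 and 84.7 CPM (2.48-fold, 2.05 to 2.99). Oligodendrocytes of the same libraries had 1157 and 158 CPM of Mt2. Of the matrix proteases and inhibitors 5 of 19 were higher and none lower. Ptgs2, the inducible cyclooxygenase, had 66.0 CPM in APOE4 LPS and 19.7 CPM in APOE3 LPS (3.35-fold, 2.31 to 4.88), and Fgf2 54.8 and 20.1 CPM (2.73-fold, 1.86 to 4.02).

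Of 32 interferon-stimulated genes, 1 was called higher in APOE4 than in APOE3 under LPS and none lower, with a median of -0.29. Isg15 and Ifitm1 were not called. Isg15 had 273 CPM in APOE4 LPS and 533 CPM in APOE3 LPS (1.95-fold lower, 1.73 to 2.21), and Ifitm1 298 and 597 CPM (2.0-fold lower, 1.78 to 2.26). Of 11 acute-phase genes 3 were higher and 1 lower. Lbp had 851 CPM in APOE4 LPS and 1624 CPM in APOE3 LPS (1.91-fold lower, 1.78 to 2.05), and Lcn2 8746 and 12364 CPM (1.41-fold lower, 1.38 to 1.45). Slc13a4, a sulfate transporter, had 3.43 CPM (4 UMIs) in APOE4 LPS and 21.3 CPM in APOE3 LPS (6.21-fold lower, 2.29 to 23.6), beside Lama1-high shares of member UMIs of 3.55% and 4.74%.

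The difference of the LPS ratio between genotypes was at least 2-fold towards APOE4 in 5.41% of 10046 genes and towards APOE3 in 8.03%. Stra6 differed by 2.13 on the log2 scale (approximate counting interval 1.35 to 2.92) and S100a6 by 1.44 (1.14 to 1.74). Both had lower levels in APOE4 NaCl than in APOE3 NaCl, as given above, and those levels enter this difference. Pthlh, parathyroid hormone-related protein, had 11.1 CPM in APOE4 LPS and 11.5 CPM in APOE4 NaCl, and 5.12 CPM in APOE3 LPS and 39.9 CPM in APOE3 NaCl, and differed by 2.92. These differences were not tested.

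Set beside other cell classes of the same libraries, chosen by their own markers, the members shared some of these levels and not others. Lcn2 had 8746 CPM in members, 6536 CPM in endothelial cells, 1240 CPM in astrocytes, 950 CPM in microglia and 13.4 CPM in pericytes of APOE4 LPS. In APOE3 LPS it had 12364, 3168, 145, 185 and 68.8 CPM in the same classes. Saa3 had 4104 CPM in members, 9244 CPM in microglia and 2448 CPM in pericytes of APOE4 LPS, and 4971, 1975 and 34.4 CPM in APOE3 LPS. Lcn2 was thus highest in the members of either LPS library, and Saa3 was higher in the members than in microglia in APOE3 LPS and lower in APOE4 LPS. Timp1 reached at most 79.4 CPM, Prg4 at most 35.9 CPM and Lbp at most 56.7 CPM in pericytes, endothelial cells, astrocytes, microglia or oligodendrocytes of any library. Ifitm3 was shared with vessel cells, with 5203 CPM in pericytes and 3714 CPM in endothelial cells of APOE4 LPS and 2787 and 3225 CPM in APOE3 LPS.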

How the data were processed

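Per the labels' protocols, glia-enriched suspensions from 3 mice per group were made into 10x Genomics 3' libraries and sequenced on a NovaSeq. The authors deposited whole-number counts of UMIs per gene and barcode, and per the file headers these come from Cell Ranger 7.0.1 (7.0, with build mm10, per the submitters' processing notes). Of the 32285 genes, 78 share a symbol and were kept apart by identifier. The human APOE transcript is measured only in part by a mouse reference. Groups were taken from the sample titles.

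Members were found by the limits given above, with Python 3.11.15, numpy 2.4.6, scipy 1.17.1, pandas 2.3.3 and matplotlib 3.10.9. Scrublet in scanpy 1.11.5 called 0 doublets in APOE4 LPS, 1069 in APOE4 NaCl, 1268 in APOE3 LPS and 1404 in APOE3 NaCl. None were removed, so that the libraries were treated alike. Since the caller failed in 1 library, doublets among the members remain possible. UMIs were summed over members per library and given as CPM. Levels have exact Poisson, shares exact Clopper-Pearson and ratios exact conditional binomial 95% intervals, which cover counting error only. A gene was measured when either library held at least 20 UMIs of it and called at 2-fold on CPM + 1, a scale that understates changes of low genes. Against 0 counts, a floor of 3 counts per library was used. Shares were thinned to 1000 UMIs per barcode, which left out no member. The ratio and its interval were tested on simulated Poisson counts. These lack variation between cells and mice, so that test checks the calculation only. Other cell classes needed at least 3 of their markers, at least 10 marker UMIs and 5 times those of any other class.

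The members and the 36 gene lists were chosen with earlier results of these data known, and the 2 groups after seeing the data. Named genes had at least 20 UMIs, a UMI in at least 10% of members and no barcode with over 20% of their UMIs in the higher library, and at least 2-fold the CPM of oligodendrocytes there. They were ranked by the interval bound nearer 1. The first 15 each way were named for LPS against NaCl and 8 each way for APOE4 against APOE3, with up to 4 per list by that ranking, the 6 marker genes, Apoe, Lcn2 and Xist. Other genes in the text, among them those described within the 2 groups, the chemokines and Csf3, were chosen after their values were seen. Alternatives changed the depth, mitochondrial, marker, doublet and other-class limits, the scaling, the pseudocount and the minimum of UMIs.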

Additional observations from a re-analysis of the deposited data

Results flagged for a closer look

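Some genes were higher under LPS than under NaCl in 1 genotype and lower in the other, with counting intervals on either side of 1. None of these differences between genotypes was tested, since each group was 1 library. The log2 ratio of LPS over NaCl in APOE4 minus that in APOE3 was 4.68 for Ptgs2, the inducible cyclooxygenase, which had 66.0 CPM in APOE4 LPS and 4.30 CPM (3 UMIs) in APOE4 NaCl, against 19.7 CPM in APOE3 LPS and 41.1 CPM in APOE3 NaCl. It was 1.61 for the transcription factor Alx4, 1.24 for the cadherin Cdh1, 0.96 for the integrin chain Itgb1, 0.90 for Mgp and 0.90 for the collagen Col8a1. Within the Slc4a10-high group the log2 ratio of Ptgs2 was 3.21 in APOE4 and only -0.18 in APOE3. Mgp had 11461 CPM in APOE4 LPS and 8629 CPM in APOE4 NaCl, against 10331 CPM in APOE3 LPS and 14496 CPM in APOE3 NaCl, and Cdh1 had 137, 73.0, 106 and 134 CPM in the same order.

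Medians of 2 lists also had opposite signs. For matrix proteases and their inhibitors the median log2 ratio of LPS over NaCl was 0.19 in APOE4 and -0.22 in APOE3, and for cytokines 0.10 in APOE4 and -0.81 in APOE3. The cytokine list had 7 measured genes in APOE4 and 6 in APOE3.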

How the results depend on the processing

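No paired analysis was possible because each group is 1 library and no replicate numbers exist. Doublets could not be removed from APOE4 LPS, which was kept as it was there. List medians under the alternatives moved by less than their spread in 2097 of 2158 cases and none was counted as changed in direction. Some medians did change sign. The basement membrane median was -0.63 in APOE4 and -0.74 in APOE3 over all members, against 0.36 and 0.03 within the Slc4a10-high group. Of the ratios of named genes 5627 of 5928 stayed, 293 moved and 8 changed direction. These totals pool settings of unlike effect. With at most 3 UMIs of 7 genes of other classes, 376 ratios of named genes stayed, 118 moved and 2 changed direction. Under that limit 157 list medians stayed and 22 moved.

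With at most 3 UMIs of 7 genes of other classes the members made up 0.187% of barcodes in APOE4 LPS, 0.329% in APOE4 NaCl, 0.505% in APOE3 LPS and 0.285% in APOE3 NaCl. With that limit on 5 of these genes, a setting chosen after seeing the data, they made up 0.823% in APOE3 LPS. In APOE4 LPS they made up 0.780% of barcodes with at least 2000 UMIs, and 0.336% with at least 10 marker UMIs.

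The number of genes at least 2-fold apart was sensitive to low counts. For LPS against NaCl it was 1081 in APOE4, against 562 with the limit on 7 genes, 716 on CPM + 10, 5394 with no minimum of UMIs and 449 with at least 50. In APOE3 it was 938, against 456, 3767 and 451 for the last 3 settings. For APOE4 against APOE3 under NaCl it was 364, against 173, 182, 4891 and 59 in the order given for APOE4, and 573 on the mean of per-barcode CPM. Under LPS it was 439, against 125, 1986 and 165 for the last 3 settings and 802 on the per-barcode mean. For the difference of ratios it was 1350, against 491, 5681, 499 and 2084. The cause was not tested beyond the counts each setting keeps.

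The share of these genes that were higher moved too. For LPS in APOE4 it was 35.1%, against 63.6% with called doublets removed from the NaCl library alone, 56.0% with the limit on 5 genes, 24.5% with no minimum and 46.3% with at least 50 UMIs. In APOE3 it was 42.3%, against 57.1% with the limit on 7 genes, 52.3% without doublets and 52.4% in the Slc4a10-high group. Under NaCl it was 55.2%, against 28.1% with the limit on 5 genes, 34.6% on the per-barcode mean and 42.9% without doublets. Under LPS it was 24.4%, against 59.7% with called doublets removed from the APOE3 library alone, 40.8% on CPM + 10 and 36.9% with no minimum.

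Ratios that changed direction, in log2, were low genes: 0.93 for Vwa1 and 0.93 for Slc6a20a in APOE4, and 0.26 for Vcam1, 0.52 for Col15a1, 1.66 for Col13a1 and 0.52 for Col4a6 in APOE3, all within the Slc4a10-high group, and -0.16 for Ccl5 and 1.10 for Cxcl14 in APOE3 with the limit on 7 genes.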

Other observations

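Immediate-early genes went opposite ways in the Lama1-high group. Fos had 24.1 CPM in APOE4 LPS and 959 CPM in APOE4 NaCl, and 799 CPM in APOE3 LPS and 14.0 CPM in APOE3 NaCl, and Junb 121, 851, 674 and 70.0 CPM in the same order. In the Slc4a10-high group Fos had 1597, 1298, 1718 and 1713 CPM. Of the 96 Fos UMIs of the Lama1-high barcodes in APOE3 LPS, 39 came from the deepest barcode, and only 2 of the others held any.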
